A study of Homo sapiens with 6 samples.

Results

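The DNA replication and mitosis genes described here are 45 transcripts of the cell division programme, picked by gene symbol from the 13271 genes of the deposited table, and all 45 were listed there. They fall into 24 replication genes, needed around the G1/S transition, and 20 mitotic genes, needed in G2/M, with the proliferation marker MKI67 kept apart from both. They were measured by RNA sequencing in 5637, a human bladder cancer cell line, 48 h after transfection with Lipofectamine, a lipid reagent. The MAT1A group (3 libraries) was transfected to overexpress MAT1A, the gene of the liver form of methionine adenosyltransferase, and the control group (3 libraries) received an empty vector. No library came from cells that were not transfected, and the labels mention no selection of transfected cells and do not tell if the replicates are cultures of their own. The p-values here thus cover the spread between libraries, which may be technical.

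Cells that divide switch on these genes in a fixed order. In G1 the origin recognition complex, CDC6 and CDT1 load the ring-shaped MCM helicase onto DNA, E2F transcription factors and cyclin E then open S phase, and the polymerases, the PCNA clamp and the enzymes of nucleotide supply copy the genome. Mitotic cyclins, CDK1 and the Polo and Aurora kinases follow in G2 and M, build the spindle and tie it to kinetochores, after which the anaphase-promoting complex degrades the cyclins. RNA of a cell population reports the mixture of phases as well as the level in each cell, and in bulk samples fewer cells of a kind and less RNA per cell cannot be told apart.

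MAT1A had 1805, 1834 and 1917 in MAT1A libraries 1, 2 and 3, against 1.09, 0.253 and 4.54 in control libraries 1, 2 and 3 (values are reads on a CPM-like scale, that is, reads relative to a scaled library size). The libraries held 18.7 to 21.6 M reads in the MAT1A group and 17.4 to 20.7 M in the control group. All 10 epithelial marker genes looked for were listed. Their summed level was 12189 to 13398 in MAT1A and 11424 to 11710 in control libraries. Taken singly, 5 of the 10 were higher in MAT1A and 1 was lower (limma adjusted p under 0.05), beside 4.01% and 7.4% of all genes. Of those higher, KRT17, KRT5 and CDH1 had the smallest p, with log2 changes of 0.44, 0.32 and 0.15. The lower one was GATA3, with a log2 change of -0.28 (limma adjusted p = 0.00061). Of 7 immune marker genes only LYZ was listed. Of 18 skeletal muscle marker genes, 17 were listed, none at 0 in any library. Their summed level was 119 to 176 in MAT1A and 182 to 606 in control libraries, with the highest value in control 1. Gene by gene, 14 of the 17 were lower in MAT1A and 0 higher (limma adjusted p under 0.05), beside 7.4% of all genes lower. Their median log2 change was -1.52. The 4 listed fibroblast markers, of 8, summed to 121 to 129 in MAT1A and 143 to 260 in control libraries, again highest in control 1. Results below that change when control 1 is left out are named, and the part of these RNAs in them was not tested.

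Few of the division genes differed between the groups. Of the 24 replication genes, 3 rose (PCNA, FEN1 and CDC6) and 0 fell, and of the 20 mitotic genes 0 rose and 0 fell (limma, Benjamini-Hochberg adjusted p under 0.05 over all 12866 genes tested). Over all genes tested, 11.4% were called, 4.01% higher and 7.4% lower, and among the 6953 genes at or above the level of the lowest member the shares were 5.72% and 7.59%. At an unadjusted p under 0.05 there were 8 replication genes and 1 mitotic gene, beside 26.2% of all genes. edgeR and limma-voom on recovered reads called the same 3 genes, and DESeq2 called PCNA and FEN1. With the replicate number as a block, 6 replication genes were higher and 1 was lower, and 0 mitotic genes were higher and 1 was lower, where 7.57% of all genes were higher and 10.4% lower.

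**Figure D1:**
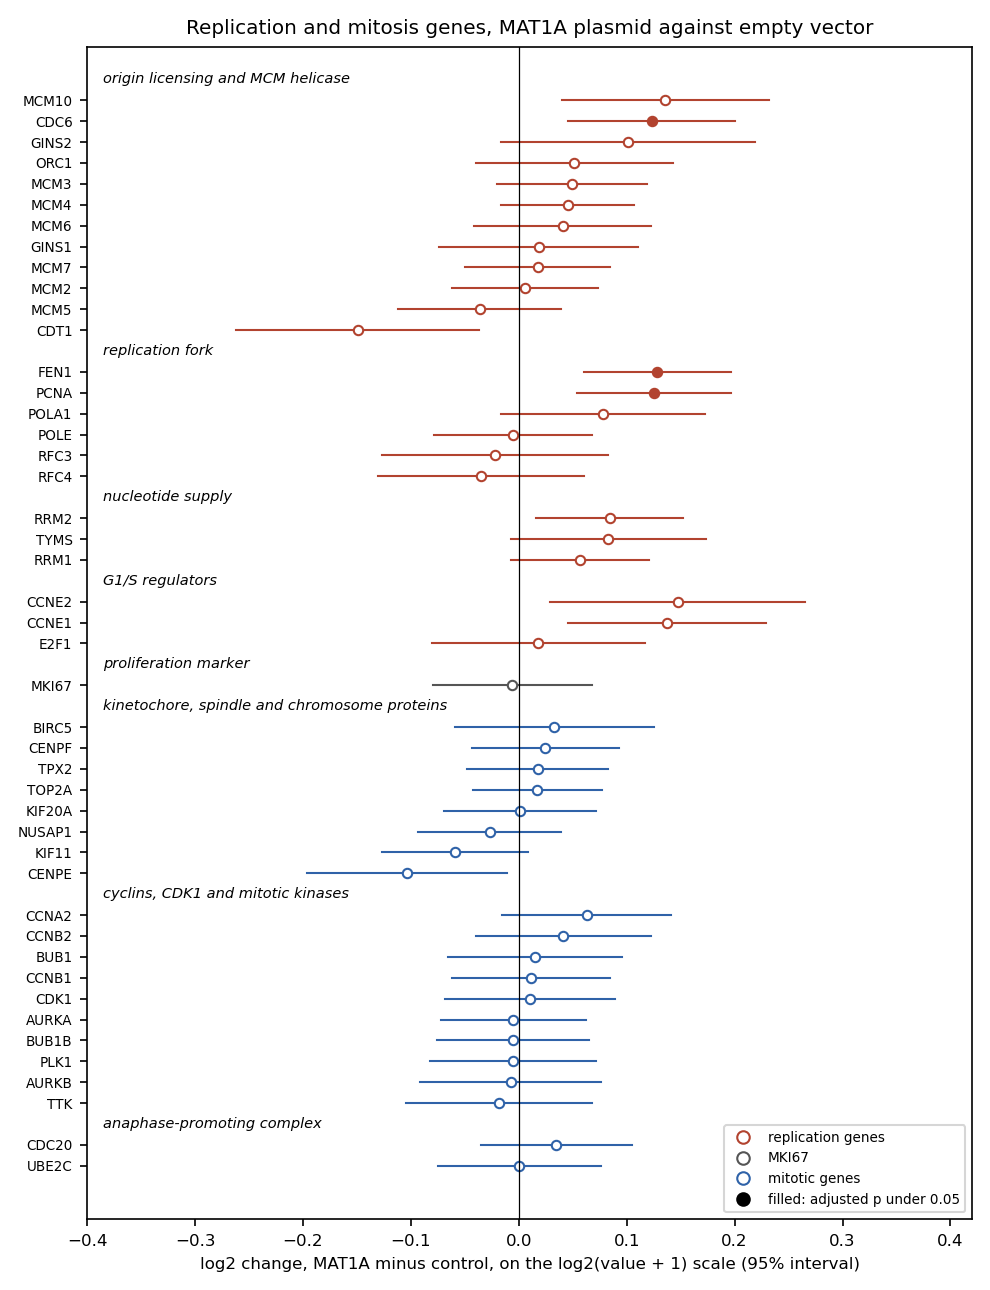
Log2 change of each of the 45 genes (x axis, the MAT1A group over the control group, from values with 1 added) with its 95% interval from limma, genes grouped by role (y axis); filled points passed an adjusted p of 0.05. Every point lies between -0.15 and 0.15, the 3 filled points are PCNA, FEN1 and CDC6, and the mitotic points lie within 0.063 of 0 apart from CENPE at -0.10.

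The replication genes lay slightly above the mitotic genes. The median log2 change was 0.050 for replication genes and 0.0057 for mitotic genes, a difference of 0.045, beside a median of 0.0040 over all genes tested and 0.013 over those at or above the level of the lowest member. Of the 24 replication genes, 19 lay above 0 and 5 below, and of the 20 mitotic genes 12 lay above 0 and 8 below, while 51.5% of all genes tested lay above 0. The MAT1A and control libraries did not overlap, with MAT1A higher, for 12 of 24 replication genes and 0 of 20 mitotic genes, against 14.7% of all genes tested and 19.1% of those at or above the level of the lowest member. They did not overlap, with MAT1A lower, for 0 replication genes and 1 mitotic gene (KIF11), against 15.6% of all genes. None of these sums over members was tested, because the members were chosen with results of these data known.

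Set against the spread of all genes, no member stood out in size. The 5th and 95th percentiles of the log2 change were -0.27 and 0.18 over all genes tested, and 0 members lay above and 0 below that range. Over the genes at or above the lowest member's level, whose range was narrower (-0.17 to 0.14), 2 members lay outside it, the cyclin E genes CCNE1 and CCNE2, both on the upper side. Among the replication genes, no 95% interval reached beyond a 1.202-fold difference in either direction. For the mitotic genes no interval reached beyond 1.15-fold. These intervals hold for each gene by itself and are on the log2(value + 1) scale.

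**Figure D2:**
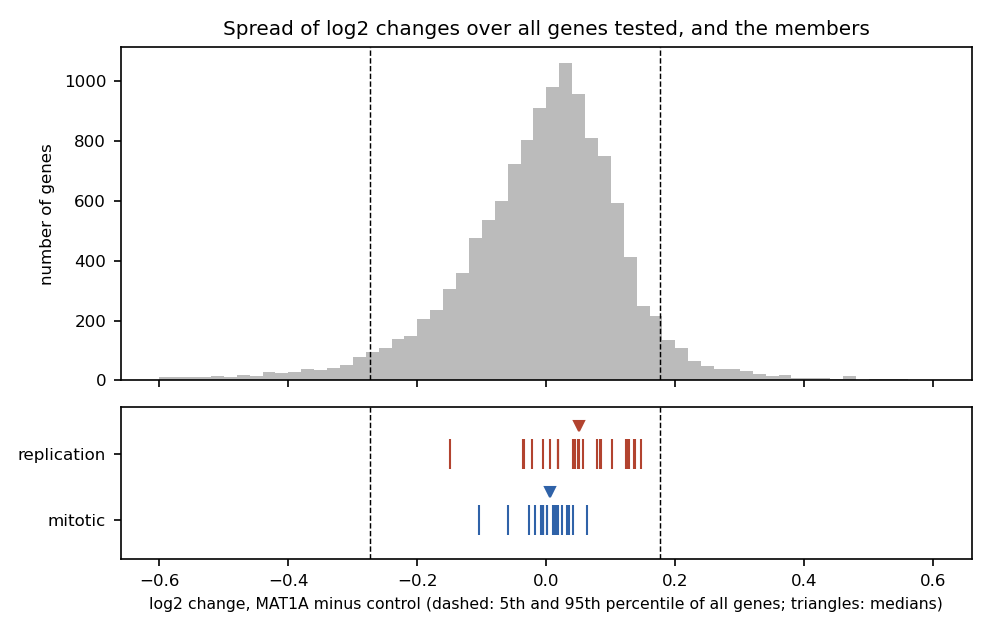
Histogram of log2 changes (x axis, MAT1A minus control) over all genes tested (y axis, number of genes; 191 genes beyond 0.6 in either direction are not drawn), with the replication and mitotic genes as ticks, their medians as triangles, and the 5th and 95th percentiles of all genes as dashed lines. All ticks lie between the dashed lines at -0.27 and 0.18, with the replication median at 0.050 and the mitotic median at 0.0057.

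The balance between both sets was nearly the same within each group. The mean log2(value + 1) level of the replication genes minus that of the mitotic genes was -0.80, -0.79 and -0.79 in MAT1A libraries 1, 2 and 3, against -0.84, -0.85 and -0.83 in control libraries 1, 2 and 3. The groups did not overlap, with means of -0.792 ± 0.0031 in MAT1A and -0.840 ± 0.0074 in control libraries (SD, n = 3 each). The replication level alone was 6.59 ± 0.017 in MAT1A and 6.54 ± 0.0073 in control libraries. The mitotic level alone was 7.39 ± 0.015 in MAT1A and 7.38 ± 0.015 in control libraries, and those libraries overlapped. In both groups library 2 had the highest level of both sets. The group means of the balance differed by 0.048, and this difference was not tested.

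**Figure D3:**
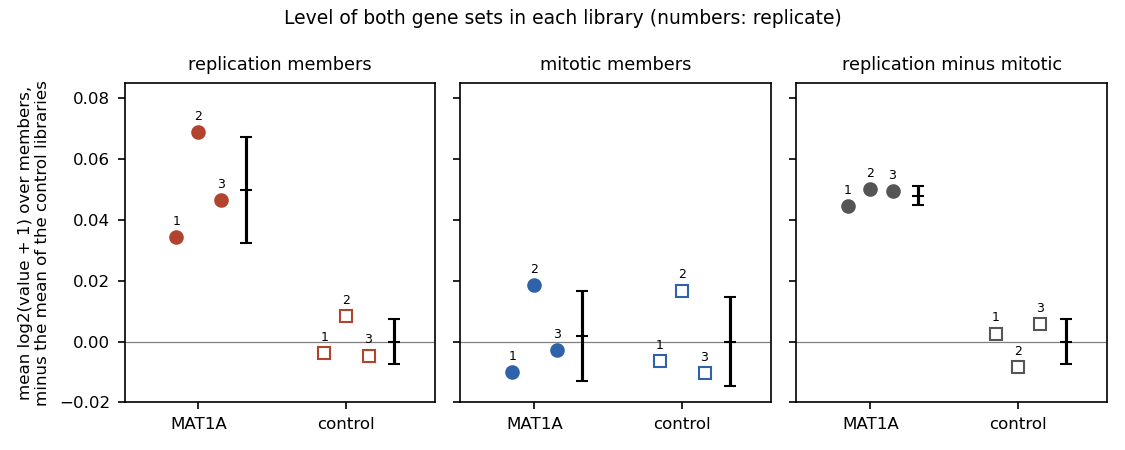
Mean log2(value + 1) over the 24 replication genes, over the 20 mitotic genes, and their difference, in each library relative to the mean of the control libraries (y axis); numbers give the replicate and bars the mean ± SD (n = 3 per group). The MAT1A libraries lie 0.034 to 0.069 above the control mean for replication genes and -0.010 to 0.019 from it for mitotic genes.

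The promoters of both sets differed in the letters of known cell cycle elements, which the choice of members by symbol did not use. RefSeq promoter windows of 300 bases, from 250 before to 50 after the start of the gene (GRCh38.p14), were found for 21 replication and 15 mitotic genes; those of MCM4, MCM5, CCNE2, AURKA, TPX2, BIRC5, UBE2C and TTK were not used here. An E2F-like element was searched as TTTNNCGC, the CCAAT box bound by NF-Y as CCAAT, and the cell cycle genes homology region (CHR), which the DREAM and MuvB complexes bind, as TTTGAA or TTCGAA. All were read on both strands, and none of them contains another. E2F-like letters were in 14 of 21 replication windows (66.7%) and 2 of 15 mitotic windows (13.3%), against 10.6% of the 10043 windows of genes tested and 6.90% of all 27305 windows in the table. CHR letters were in 2 replication windows (9.52%) and 10 mitotic windows (66.7%), against 11.1% of genes tested and 16.6% of all windows. CCAAT was in 14 replication windows (66.7%) and 13 mitotic windows (86.7%), against 36.8% and 35.7%. CCAAT and CHR stood together in 2 replication and 9 mitotic windows, a pairing known from G2/M promoters, against 4.79% of genes tested. A match is a description of the letters and not a bound site.

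**Figure D4:**
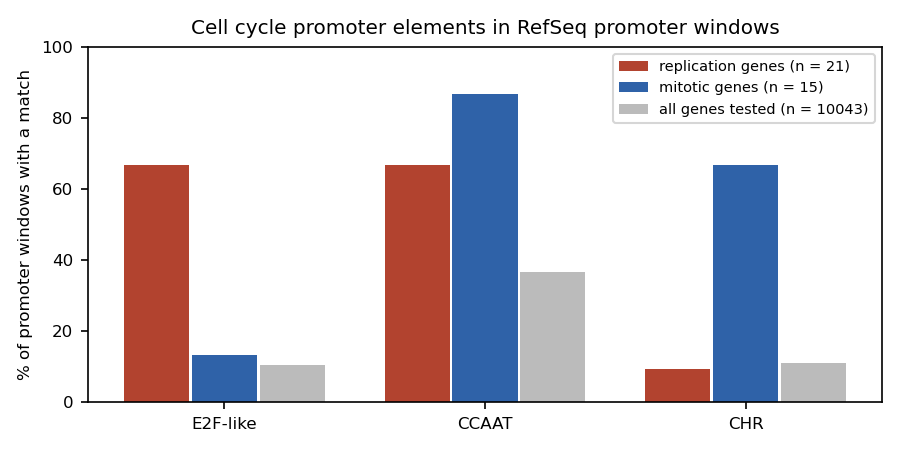
Share of RefSeq promoter windows (y axis, percent) that hold E2F-like, CCAAT or CHR letters on either strand (x axis), for the 21 replication windows, the 15 mitotic windows and the 10043 windows of genes tested. E2F-like letters reach 66.7% in the replication genes and 13.3% in the mitotic genes, and CHR letters 9.52% and 66.7%.

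The windows below are shown because they belong to the replication genes that rose and to the 3 mitotic genes with the smallest log2 change, among windows with a match. They lie at chr20:5126573-5126872 (minus strand) for PCNA, chr17:40287629-40287928 (plus strand) for CDC6, chr5:138178862-138179161 (plus strand) for KIF20A, chr15:40160819-40161118 (plus strand) for BUB1B and chr16:23678639-23678938 (plus strand) for PLK1. Each is given 5′ to 3′ on the strand of its gene, with matches to the 3 elements in capitals. The window of FEN1, the other gene that rose, holds none of these letters.
PCNA: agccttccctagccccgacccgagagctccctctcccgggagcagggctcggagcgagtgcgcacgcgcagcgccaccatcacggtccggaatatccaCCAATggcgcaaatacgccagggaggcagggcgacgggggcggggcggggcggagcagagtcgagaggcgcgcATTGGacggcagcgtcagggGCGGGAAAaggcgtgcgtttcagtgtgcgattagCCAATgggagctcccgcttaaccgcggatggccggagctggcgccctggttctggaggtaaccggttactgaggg
CDC6: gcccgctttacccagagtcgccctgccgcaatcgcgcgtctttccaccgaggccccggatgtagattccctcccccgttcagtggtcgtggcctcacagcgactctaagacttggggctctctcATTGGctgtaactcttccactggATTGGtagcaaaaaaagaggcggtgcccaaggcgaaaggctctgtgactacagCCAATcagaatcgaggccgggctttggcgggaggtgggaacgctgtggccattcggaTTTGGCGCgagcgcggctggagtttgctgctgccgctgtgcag
KIF20A: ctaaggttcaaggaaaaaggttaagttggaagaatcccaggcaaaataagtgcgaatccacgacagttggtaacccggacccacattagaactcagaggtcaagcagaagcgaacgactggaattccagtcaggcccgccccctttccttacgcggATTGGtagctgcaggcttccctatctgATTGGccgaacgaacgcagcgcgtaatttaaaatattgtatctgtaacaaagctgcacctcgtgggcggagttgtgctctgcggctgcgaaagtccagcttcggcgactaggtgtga
BUB1B: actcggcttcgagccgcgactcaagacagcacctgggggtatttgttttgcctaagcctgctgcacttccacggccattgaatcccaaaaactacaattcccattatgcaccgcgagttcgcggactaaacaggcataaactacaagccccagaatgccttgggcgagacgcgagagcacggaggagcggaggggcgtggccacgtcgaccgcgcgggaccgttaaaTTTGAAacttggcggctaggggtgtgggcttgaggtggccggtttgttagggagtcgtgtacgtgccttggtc
PLK1: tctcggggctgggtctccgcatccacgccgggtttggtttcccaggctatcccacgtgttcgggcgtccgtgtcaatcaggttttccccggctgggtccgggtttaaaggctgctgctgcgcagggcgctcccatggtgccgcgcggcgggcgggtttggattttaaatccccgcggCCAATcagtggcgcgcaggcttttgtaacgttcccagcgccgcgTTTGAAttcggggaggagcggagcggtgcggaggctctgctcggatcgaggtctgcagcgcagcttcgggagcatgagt
Counted from the start of the gene, PCNA has CCAAT on either strand at -152, -79 and -25 and E2F-like letters at -59. CDC6 has CCAAT on either strand at -126, -103 and -50 and E2F-like letters at 8. KIF20A has CCAAT on the opposite strand at -94 and -67, BUB1B has CHR letters at -23, and PLK1 has CCAAT at -73 and CHR letters at -29. Within the replication set, genes with E2F-like letters had a median log2 change of 0.030 (n = 14) and those without had 0.084 (n = 7). Both PCNA and CDC6 are among those with the letters, and FEN1 and CCNE1 among those without. Mitotic genes with CHR letters had a median of 0.013 (n = 10) and those without had 0.00094 (n = 5).

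Among the genes that license origins and form the replicative helicase, 1 of 12 rose, beside 4.01% of all genes tested. CDC6, which brings the MCM ring to the origin (chr17:40287633-40304657, plus strand, hg38, GENCODE 29), had 169, 169 and 179 in MAT1A libraries 1, 2 and 3, against 152, 164 and 160 in control libraries 1, 2 and 3. Every MAT1A library lay above every control library, and it stood 0.12 ± 0.037 higher on the log2 scale (SE; limma adjusted p = 0.0391). The call was lost without control 1, control 3, MAT1A 1 or MAT1A 3 (adjusted p up to 0.201) and under DESeq2. CDT1, the loading partner of CDC6, pointed the other way. It had 48.2, 52.0 and 46.0 in MAT1A libraries, against 51.0, 54.0 and 57.4 in control libraries. MAT1A 2 exceeded control 1, so the groups overlapped, and the log2 change of -0.15 ± 0.053 did not pass (limma adjusted p = 0.0804). It was called lower with the replicate block (adjusted p = 0.0340) and without MAT1A 2 (0.0169). ORC1, the subunit of the origin recognition complex that varies through the cell cycle, averaged 49.8 ± 1.45 in MAT1A and 48.0 ± 0.87 in control libraries (SD, n = 3 each) and was not called.

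The MCM2 to MCM7 genes, which encode the ring of the replicative helicase, were not called. Their log2 changes ran from -0.036 for MCM5 to 0.050 for MCM3, and 0 of 6 were called, beside 11.4% of all genes tested. MCM7, the most abundant of them per length, had 513, 545 and 511 in MAT1A libraries, against 517, 527 and 507 in control libraries, with a 95% interval of the log2 change from -0.050 to 0.085. MCM4 had 230, 232 and 231 in MAT1A libraries, against 224, 223 and 225 in control libraries. These MCM4 values did not overlap although the log2 change was only 0.045 (95% interval -0.016 to 0.11; limma adjusted p = 0.347). MCM2, with 173, 175 and 167 in MAT1A libraries and 169, 172 and 173 in control libraries, had overlapping groups and a log2 change of 0.0055. MCM7 shares 392 exon bases with AP4M1 on the opposite strand, which had a log2 change of -0.067 and was not called.

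MCM10, which helps to activate the loaded helicase, had 67.2, 69.7 and 64.9 in MAT1A libraries, against 57.9, 64.2 and 61.4 in control libraries. The groups did not overlap, yet the log2 change of 0.14 ± 0.045 (SE) missed the threshold (limma adjusted p = 0.0642; 0.0192 with the replicate block). MCM10 was called higher without MAT1A 3 and without control 2, and not in the other fits that leave out a library (adjusted p up to 0.271). GINS1 and GINS2 encode subunits of the GINS complex, a partner of the helicase at the fork. GINS2 averaged 26.8 ± 0.86 in MAT1A and 24.9 ± 1.01 in control libraries (SD, n = 3 each), and GINS1 averaged 58.5 ± 2.35 in MAT1A and 57.8 ± 1.64 in control libraries. GINS2 values did not overlap and those of GINS1 did, and neither gene was called (log2 changes 0.10 and 0.018).

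At the fork, 2 of 6 genes rose, beside 4.01% of all genes tested. PCNA, the sliding clamp of the polymerases (chr20:5114953-5126626, minus strand), had 213, 225 and 214 in MAT1A libraries, against 199, 205 and 193 in control libraries. FEN1, the flap endonuclease that trims Okazaki fragments and binds PCNA (chr11:61792637-61797244, plus strand), had 216, 227 and 218 in MAT1A libraries, against 201, 205 and 197 in control libraries. For both genes every MAT1A library lay above every control library, beside 14.7% of all genes tested. The mean difference was 9.10% for PCNA and 9.36% for FEN1. Their log2 changes were 0.13 ± 0.034 and 0.13 ± 0.032 (SE; limma adjusted p = 0.0234 and 0.0158). Both calls were lost without control 1 and without control 3, with adjusted p up to 0.148 for PCNA and 0.103 for FEN1. FEN1 shares 166 exon bases with TMEM258 on the opposite strand, whose log2 change of 0.099 did not pass (adjusted p = 0.140), and since the library kit does not mark strand, reads in those bases cannot be told apart.

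The other fork genes were not called. POLA1, the catalytic subunit of the primase-coupled polymerase, had 39.6, 41.0 and 40.3 in MAT1A libraries, against 38.1, 38.2 and 38.1 in control libraries. These values did not overlap and differed by a log2 change of 0.078 (95% interval -0.017 to 0.17). POLE, the catalytic subunit of the leading-strand polymerase, averaged 147 ± 4.44 in MAT1A and 147 ± 3.45 in control libraries. RFC3 and RFC4, subunits of the clamp loader that opens PCNA, averaged 38.1 ± 1.20 and 46.3 ± 1.77 in MAT1A libraries and 38.8 ± 1.75 and 47.5 ± 1.08 in control libraries, with overlapping groups. The clamp and the endonuclease that works on it passed the test while the clamp loader's listed subunits did not, a contrast between genes that was not itself tested.

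The genes of nucleotide supply all lay above 0 without passing. RRM2, the cell cycle-regulated subunit of ribonucleotide reductase, had 212, 218 and 223 in MAT1A libraries, against 209, 202 and 206 in control libraries. RRM1, its large subunit, had 325, 327 and 321 in MAT1A libraries, against 303, 316 and 317 in control libraries. TYMS, thymidylate synthase, had 60.5, 57.7 and 56.0 in MAT1A libraries, against 55.8, 54.7 and 53.8 in control libraries. In none of the 3 genes did the groups overlap, although the lowest MAT1A value of TYMS exceeded the highest control value only narrowly. Groups without overlap and with MAT1A higher made up 14.7% of all genes tested. The log2 changes were 0.084, 0.057 and 0.083 for RRM2, RRM1 and TYMS (limma adjusted p = 0.104, 0.248 and 0.232), and RRM2 was called higher with the replicate block (adjusted p = 0.0438). TYMS shares 967 exon bases with ENOSF1 on the opposite strand, which was not called (log2 change 0.082).

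Cyclin E, the CDK2 partner that starts S phase, gave the largest upward log2 changes of the 45 genes. CCNE1 had 51.7, 54.2 and 51.2 in MAT1A libraries, against 46.5, 48.8 and 47.3 in control libraries, and CCNE2 had 31.0, 31.7 and 33.9 in MAT1A libraries, against 29.5, 27.3 and 30.2 in control libraries. Neither gene's groups overlapped, beside 14.7% of all genes tested without overlap and with MAT1A higher. The log2 changes of 0.14 ± 0.043 for CCNE1 and 0.15 ± 0.056 for CCNE2 (SE) did not pass (limma adjusted p = 0.0518 and 0.101). CCNE1 passed with the replicate block (limma adjusted p = 0.0241), without MAT1A 3 (0.0447) and with the filter set at 5, where 4 replication genes were called. CCNE2 shares 1629 exon bases with INTS8 on the opposite strand, which stood at 36.1 in both groups. E2F1, a transcription factor that activates many replication genes, averaged 40.3 ± 1.49 in MAT1A and 39.7 ± 0.54 in control libraries, with a 95% interval of the log2 change from -0.080 to 0.12.

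**Figure D5:**
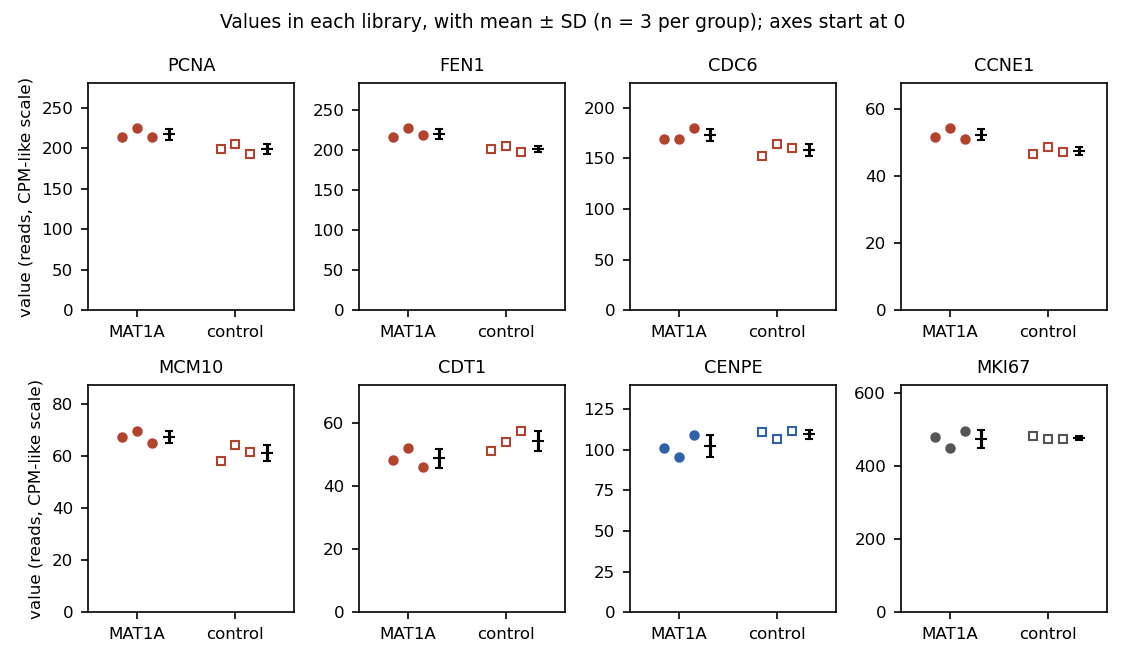
Values of 8 genes in each library (y axes from 0, reads on the CPM-like scale; x axis, group), with mean ± SD beside the points (n = 3 per group). PCNA, FEN1, CDC6, CCNE1 and MCM10 have every MAT1A library above every control library, CDT1 and CENPE have lower means in MAT1A (48.7 and 102) than in control libraries (54.1 and 109.7), and MKI67 is at 475 and 477.

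MKI67, whose protein coats mitotic chromosomes and is the usual proliferation marker, had 479.5, 449 and 497 in MAT1A libraries, against 482, 474 and 474 in control libraries. The groups overlapped, and the 95% interval of the log2 change was -0.079 to 0.068, or 0.946-fold to 1.05-fold. MAT1A libraries varied more (SD 24.3) than control libraries (SD 4.70). The promoter window of MKI67 holds both CCAAT and CHR letters, as most mitotic windows do.

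Of the 10 genes of mitotic cyclins, CDK1 and mitotic kinases, 0 were called, beside 11.4% of all genes tested. The log2 changes of the 10 ran from -0.018 for TTK to 0.063 for CCNA2. CCNB1, the main partner of CDK1 at mitotic entry, had 243, 253 and 236 in MAT1A libraries, against 233, 249 and 243 in control libraries. CDK1 had 114, 120 and 112 in MAT1A libraries, against 114, 118 and 112 in control libraries, a log2 change of 0.010. With the trend of each library on exon length and GC content removed, CDK1 had a log2 change of 0.096 that was not called (limma adjusted p = 0.111), and with the replicate block as well it was called higher (0.0149). PLK1, a kinase of spindle assembly whose promoter is printed above, had 119, 128 and 120 in MAT1A libraries, against 125, 121 and 122 in control libraries. In these 3 genes, library 2 was the highest of the MAT1A group, and the groups overlapped.

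CCNA2, the cyclin that acts in both S phase and mitosis, had 106, 102 and 100.4 in MAT1A libraries, against 98.6, 95.7 and 100.7 in control libraries. Its log2 change of 0.063 did not pass (95% interval -0.015 to 0.14). With the length and GC trend removed it was 0.11 and called higher (limma adjusted p = 0.0351), a call lost again with library medians set back after that correction (0.110). CCNA2 shares 254 exon bases with EXOSC9 on the opposite strand, which fell (log2 change -0.14, limma adjusted p = 0.0234). CCNB2, AURKA and AURKB (the Aurora kinases of centrosomes and of the chromosomal passenger complex), TTK, BUB1 and BUB1B (kinases of the spindle checkpoint) all had overlapping groups. AURKA averaged 162 ± 3.81 in MAT1A and 163 ± 0.91 in control libraries, and BUB1B averaged 151 ± 1.80 in MAT1A and 152 ± 4.32 in control libraries.

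Among the 8 genes of kinetochore, spindle and chromosome proteins, 0 were called, beside 11.4% of all genes tested. CENPE, the kinesin that carries chromosomes to the spindle equator, was the lowest. It had 101, 95.7 and 109 in MAT1A libraries, against 111, 107 and 112 in control libraries. MAT1A 3 exceeded control 2, so the groups overlapped, and the log2 change of -0.10 ± 0.044 (SE) did not pass (limma adjusted p = 0.142). It was called lower with the replicate block (adjusted p = 0.0370) and without MAT1A 3 (0.0187), while with the trend of each library on exon length and GC content removed its log2 change was -0.012. KIF11, the kinesin that separates spindle poles, had 127, 126 and 127 in MAT1A libraries, against 132, 130.5 and 133 in control libraries. These did not overlap, and the log2 change of -0.059 did not pass (adjusted p = 0.254; 0.0088 as log2 change with the length and GC trend removed).

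The remaining spindle and chromosome genes were not called on the deposited scale. TOP2A, the topoisomerase that untangles sister chromatids and by value the highest of the 45 genes, had 889, 866 and 889 in MAT1A libraries, against 873, 880.0 and 859.5 in control libraries. Its log2 change was 0.017. Once the length and GC trend was removed it was 0.082 and called higher (limma adjusted p = 0.0264; 0.0942 with library medians set back). TPX2, an activator of AURKA, averaged 412 ± 6.40 in MAT1A and 407 ± 12.5 in control libraries. CENPF, a kinetochore protein, averaged 356 ± 14.2 in MAT1A and 350 ± 1.82 in control libraries. Its log2 change was 0.025, and 0.085 with that trend removed, where it too was called higher (limma adjusted p = 0.0180; 0.0784 with library medians set back). KIF20A, a kinesin of the central spindle, had 114, 118 and 117 in MAT1A libraries, against 117, 116 and 115 in control libraries, a log2 change of 0.00094. NUSAP1 and BIRC5, a microtubule-binding protein and the survivin subunit of the chromosomal passenger complex, had log2 changes of -0.027 and 0.033.

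Neither of the genes of the anaphase-promoting complex was called, beside 11.4% of all genes tested. CDC20, its activator, had 286, 305 and 284 in MAT1A libraries, against 282, 289 and 282 in control libraries, and UBE2C, its ubiquitin-conjugating enzyme, had 184.5, 202 and 186 in MAT1A libraries, against 189.8, 192 and 189.98 in control libraries. Both genes peaked in MAT1A 2, and the groups overlapped. The pseudogene CDC20P1 was also listed, at 4.62 to 5.28 in MAT1A and 4.65 to 5.45 in control libraries.

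Per length of annotated exon, the members spanned a wide range of abundance. Levels per kilobase of exon, averaged over the 6 libraries, ran from 6.19 for POLA1, 6.96 for CCNE2 and 7.91 for GINS2 to 141 for CDC20 and PCNA and 148 for UBE2C. Among the next highest were TOP2A at 136, MCM7 at 119 and TPX2 at 114. Every member had at least 415 reads in every library, so none was near the floor of 3 reads, which is 0.140 to 0.172 on the deposited scale.

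Libraries MAT1A 2 and MAT1A 3 departed from their group mean with exon length and GC content, in opposite directions. In the 5 longest members (MCM5, CENPE, CENPF, MKI67 and POLE, 7338 to 16609 exon bases) MAT1A 2 stood on average at -0.049 and MAT1A 3 at 0.034 relative to the group mean on the log2 scale. In the 5 shortest (UBE2C, PCNA, CDC20, AURKB and TYMS, 1286 to 2470 bases) MAT1A 2 stood at 0.050 and MAT1A 3 at -0.039. Across the 45 members, Spearman's correlation of the deviation with exon length was -0.47 for MAT1A 2 and 0.37 for MAT1A 3, and with GC content 0.42 for MAT1A 2 and -0.49 for MAT1A 3. Across 12807 genes tested, the correlations with length were -0.33 and 0.27 and those with GC content 0.35 and -0.38, for MAT1A 2 and MAT1A 3 in that order. For MAT1A 1 the correlation with length was 0.32 across the members and 0.12 across genes tested. Deviations from the mean of 3 libraries are not independent of each other. The difference of the group means, MAT1A minus control, also went with both features across the genes tested (-0.12 with length, 0.23 with GC content). Removing the trend thus also alters the contrast between the groups. All these correlations are across genes of the same libraries, which share depth and base composition, and only describe the libraries. With that trend removed from every library, 8 replication genes were called higher (PCNA, FEN1, CDC6, MCM10, CCNE1, CCNE2, RRM1 and RRM2) and 1 lower (CDT1), and 3 mitotic genes were called higher (TOP2A, CCNA2 and CENPF), where over all genes 10.1% were called higher and 7.33% lower. All genes then split into 1294 higher and 943 lower, against 516 higher and 952 lower in the uncorrected fit. When library medians were set back after the correction, a choice made after seeing the data, 7 replication genes were higher (without RRM1), CDT1 was lower and 0 mitotic genes were called.

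Few other genes of the same processes passed the test. Of 48 tested genes among 49 further replication genes (other polymerase, clamp loader, primase, licensing and chromatin assembly genes), 1 rose (2.08%) and 0 fell, with a median log2 change of 0.046 and 35 above 0. Among all genes tested, 4.01% rose, 7.4% fell, and 51.5% lay above 0. The gene that rose was CLSPN, an adaptor of the replication checkpoint, with 95.8, 92.7 and 95.6 in MAT1A libraries, against 86.0, 89.0 and 86.5 in control libraries (log2 change 0.12 ± 0.036, SE; limma adjusted p = 0.0424). It was called in 1 of the 6 fits that leave out a library, that without MAT1A 2 (adjusted p up to 0.154 in the others). It was not called by DESeq2 (adjusted p = 0.128). With the replicate block 4 genes of this list were higher and 0 lower, beside 7.57% and 10.4% of all genes.

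Of 62 further mitotic genes, 0 rose and 2 fell (3.23%), with a median log2 change of 0.0012 and 33 above 0. Over all genes tested, 4.01% were called higher, 7.4% lower, and 51.5% lay above 0. ECT2, the exchange factor that starts the cleavage furrow, had 138, 137 and 139 in MAT1A libraries, against 159, 152 and 157 in control libraries, a difference of -0.18 ± 0.033 on the log2 scale (SE; limma adjusted p = 0.00184). It was called in all 6 fits that leave out a library, and its log2 change was -0.11 with the length and GC trend removed. KIF18A, a kinesin that limits chromosome movement, fell to 33.8 in MAT1A libraries, against 37.8 in control libraries (log2 change -0.16; adjusted p = 0.0451), kept its call in 2 of those 6 fits (without MAT1A 3 or control 2, adjusted p up to 0.176 in the others) and lost it under DESeq2 (0.153). With that trend removed its log2 change was -0.083 and not called (limma adjusted p = 0.216).

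Of 30 tested regulators of the cell cycle, among 31 listed, 0 rose and 3 fell (10%), with a median log2 change of 0.031. The share that fell is near the 7.4% of all genes tested, of which 4.01% rose. CDK6, a G1 cyclin-dependent kinase, had 504, 444 and 507 in MAT1A libraries, against 560, 512 and 567 in control libraries. E2F7, an atypical E2F that represses its targets, had 123, 116 and 126 in MAT1A libraries, against 135, 130 and 137 in control libraries. RB1, the retinoblastoma protein that restrains E2F, was low in both groups, at 4.04, 3.70 and 4.57 in MAT1A libraries, against 7.29, 5.10 and 6.66 in control libraries. In these 3 genes the groups did not overlap, beside 15.6% of all genes tested without overlap and with MAT1A lower. The log2 changes were -0.17, -0.14 and -0.52 (limma adjusted p = 0.0247, 0.0240 and 0.00819). Adding 1 shrinks the change of a gene as low as RB1, which was -0.61 with 0.1 added instead and -0.63 by DESeq2. With the replicate block 2 regulators were higher and 3 lower, beside 7.57% and 10.4% of all genes. CDK6 lost its call without control 1 or control 3 (adjusted p 0.117 and 0.143) and under DESeq2 (0.169), and its log2 change was -0.11 without MAT1A 2. E2F7 kept its call only without MAT1A 3 or control 2, with an adjusted p up to 0.128 in the other 4 fits, and RB1 lost its call without control 1 (adjusted p = 0.0557).

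Leaving out a library moved the number of calls more than the values. Without control 1 or without control 3, 0 replication genes and 0 mitotic genes were called, and the total over all genes was 782 or 749, against 1468 with all libraries. The replication median stayed between 0.039 and 0.064 and the mitotic median between -0.012 (without MAT1A 2) and 0.021 (without control 2) over the 6 fits that leave out a library.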

How the data were processed

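RNA of 6 libraries (3 MAT1A, 3 control) was analysed from 1 deposited table. The authors deposited a signal per gene, reads on a CPM-like scale. Per the submitters' processing notes, STAR 2.6.0c, featureCounts and edgeR were used with the hg38 build; their annotation and settings are not given in the sources used, and per the labels' protocols the TruSeq version 2 kit was sequenced as single-end reads. In every column 100% of values were whole multiples of a step within 0.001 reads, which gave the depth. The design planned for scaled values was used: limma 3.58.1 (R 4.3.3) with an intensity trend on log2(value + 1), for the 12866 genes that reached a value of 1 in 3 or more libraries, with Benjamini-Hochberg adjustment over all of them and calls at an adjusted p under 0.05. edgeR 4.0.16, DESeq2 1.42.0 and limma-voom on recovered reads were alternatives. In control 1, control 3 and MAT1A 1 the lowest value corresponds to more than 1 read, so the step was found there from the spacing of values. The groups share replicate numbers. Once the mean of each group was taken off, same-numbered libraries correlated at 0.25, 0.18 and 0.19 across genes. Libraries of different number correlated at -0.17 to -0.025. The number was therefore taken to pair them, a pairing read from the values and not stated in the labels, and the fit with it as a block stands beside results whose call it changes. Skeletal muscle markers were highest in library 1 of both groups, and their part in these correlations was not tested. Across genes tested, Spearman's correlation of the deviation from the group mean with exon length was 0.12, -0.33 and 0.27 in MAT1A libraries 1, 2 and 3. In control libraries 1, 2 and 3 it was 0.14, -0.16 and 0.023. With GC content it was 0.0048, 0.35 and -0.38 in MAT1A and -0.012, 0.11 and -0.11 in control libraries. The part of this trend in the pairing was not tested either. Chi-square per degree of freedom lay between 1.86 and 4.37 for pairs within a group, above sampling noise, so no library was counted as a duplicate. Exon lengths, GC content and overlaps are from GENCODE 29 (GRCh38), which matched 13211 of 13271 symbols and all 45 members. Promoter windows are from RefSeq. The fit was also run on simulated data, where the changes set were larger than those of the members. That run does not cover changes of their size. The members and lists were chosen with earlier results of these data known. The genes named from the further replication, mitotic, regulator and epithelial lists are those called, up to 3 per direction by p. Called muscle and fibroblast markers are not named singly. MAT1A, LYZ, CDC20P1 and some genes that share exon bases with members are named as well.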

Additional observations from a re-analysis of the deposited data

How the results depend on the processing

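Of the 45 genes, all kept their side of the threshold under DESeq2 size factors, upper-quartile scaling, edgeR, limma-voom, no filter and a pseudocount of 0.1, where the medians moved by less than the spread between libraries. None of the 3 genes called without alternatives changed sign under any of them. With the replicate block 2310 genes were called over the whole table, 7 replication and 1 mitotic, and among the 45 genes it changed no other call than those named in the report. DESeq2 called 957 genes over the whole table. At an adjusted p under 0.01 there were 663 genes and 0 replication genes. With the length and GC trend removed, 2237 genes, 9 replication and 3 mitotic were called, with medians of 0.067 and 0.033 and a difference of 0.034; with the block as well the counts were 2868, 9 and 4, with the same medians (0.067 and 0.033) and difference (0.034). Chosen after seeing the data, the same correction with library medians set back called 1905 genes over the whole table, 8 replication and 0 mitotic. Its replication median was 0.043 and its mitotic median 0.0090, with a difference of 0.034. Without that step the correction does not hold library medians fixed, so the medians of 0.067 and 0.033 can include a shift of the whole table. Leaving out each library in turn gave 749 to 1656 genes over the whole table, 0 to 4 replication and 0 to 1 mitotic genes, replication medians of 0.039 to 0.064, mitotic medians of -0.012 to 0.021 and a difference of 0.043 to 0.053. Calls lost when a library is left out come with fewer samples in the fit, and no other cause was tested. The lowest member had 415 reads in its shallowest library, and the share of counting error in the spread of such genes was not tested.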
